A study of Mus musculus with 6 samples.

Results

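The genes described here encode the subunits of the oxidative phosphorylation complexes, measured in mouse embryonic stem (ES) cells after conditional deletion of the cohesin subunit gene Scc1. They were chosen by name: a gene was a member where a probe set of the array carried its symbol alone and the symbol began with Nduf and a subunit letter and number, Uqcr, a Cox number from 4 to 8 or Atp5, or was Sdha, Sdhb, Sdhc or Sdhd. The rule found 81 genes of the 19938 measured, on 105 of the 35556 probe sets. Complex I gave 35 of them, complex II 4, complex III 8, complex IV 17 and complex V 17. Where a gene had several probe sets, the one with the highest mean over the arrays stood for it.

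The study compared Scc1 lox/lox with Scc1 wt/wt ES cells, 3 samples of each genotype, on 6 Affymetrix Mouse Gene 1.0 ST arrays. Both groups carried ERT2-Cre, a recombinase that enters the nucleus when it binds 4-hydroxytamoxifen (4-OHT), and both had been given 4-OHT for 24 h, so the Scc1 wt/wt cells are the control for the drug and for active Cre. The sample labels state 80 nM, while the series text writes the same figure in mM. The cells were female, of mixed C57BL/129 background, and were derived in 2i, a pair of kinase inhibitors, and grown on laminin in N2B27 medium with 2i and LIF. No sample without 4-OHT enters the comparison, so the loss of the gene and any earlier difference between the lines cannot be told apart. The number of lines behind each genotype is not stated. Values are log2 expression after the robust multi-array average (RMA) normalization. A fall in RNA per cell that all genes share would not show on this scale, and in a bulk sample fewer cells of a type and less RNA per cell cannot be told apart.

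Oxidative phosphorylation turns the energy of nutrients into ATP at the inner mitochondrial membrane. Complex I passes electrons from NADH, and complex II electrons from succinate, to coenzyme Q. Complex III hands them on to cytochrome c and complex IV to oxygen. Complexes I, III and IV pump protons as they work, and complex V, the ATP synthase, lets the protons flow back to drive ATP formation. Most of the subunits are encoded in the nucleus, a small core is encoded in mitochondrial DNA, and the genes of a complex are scattered over many chromosomes. Mouse ES cells of the naive state, which 2i medium maintains, are known to respire as well as to use glycolysis.

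The targeted gene was measured first. Rad21, the current symbol of Scc1 and the gene for the subunit that closes the cohesin ring, was at 10.05, 9.99 and 10.01 in the Scc1 wt/wt arrays and at 6.08, 6.06 and 6.14 in the Scc1 lox/lox arrays. It fell by 3.92 on the log2 scale (SE 0.072), a 15.2-fold difference (limma, adjusted p = 1.57e-09). Between any pair of arrays the correlation over all probe sets was 0.989 to 0.995. In the first component of the spread within genotypes, which held 34.8% of it, Scc1 wt/wt replicate 2 (loading -0.621) and Scc1 lox/lox replicate 3 (-0.482) stood apart from the other 4 arrays (0.12 to 0.50). Where leaving out one of them changed the call of a named gene, this is given with that gene.

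Most transcripts of the respiratory complexes differed little between the genotypes, and few passed the threshold. With limma over all 19938 genes and an adjusted p below 0.05, 1228 genes were called (6.16%), 508 of them higher (2.55%) and 720 lower (3.61%) in Scc1 lox/lox. Among the 81 subunit genes 1 was called (1.23%): Atp5e, the epsilon subunit of the ATP synthase, which rose 1.31-fold. The subunit genes are well expressed, with 78 of them above the median of all values, where 10.0% of genes were called. At an unadjusted p below 0.05 there were 13 of the 81 subunit genes, 6 higher and 7 lower, against 18.0% of all genes and 26.1% of those above the median of all values. All 3 arrays of one genotype lay above all 3 of the other for 25 subunit genes (30.9%), against 22.8% of all genes and 31.2% of those above the median of all values. Of these, 14 were higher in Scc1 lox/lox and 11 lower, with backgrounds of 10.1% and 12.7% of all genes. Of the 11400 genes above the median of all values, 1533 were higher without overlap and 2027 (17.8%) lower.

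The differences were small as well as mixed in sign. Of the 81 genes, 48 had a positive and 33 a negative difference between genotypes, and the median was 0.018 on the log2 scale, against -0.0079 over all genes. The range ran from -0.31 for Uqcrb to 0.50 for Ndufa4l2. A difference of less than 0.1 was measured for 51 subunit genes (63.0%, against 54.2% of all genes). One of more than 0.25 was measured for 6 (7.41%, against 13.3%). The 95% interval of the difference lay within 1.5-fold in either direction for 80 of the 81 genes (98.8%, against 93.0% of all genes), the exception being Ndufa4l2. The median SD within a genotype was 0.057 in Scc1 wt/wt and 0.061 in Scc1 lox/lox for the subunit genes, against 0.099 and 0.097 for all genes. With the subunit genes' median SE of 0.077, a difference had to reach about 0.30 to be called, so changes below about 1.23-fold were mostly not detectable with 3 arrays a genotype.

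**Figure D1:**
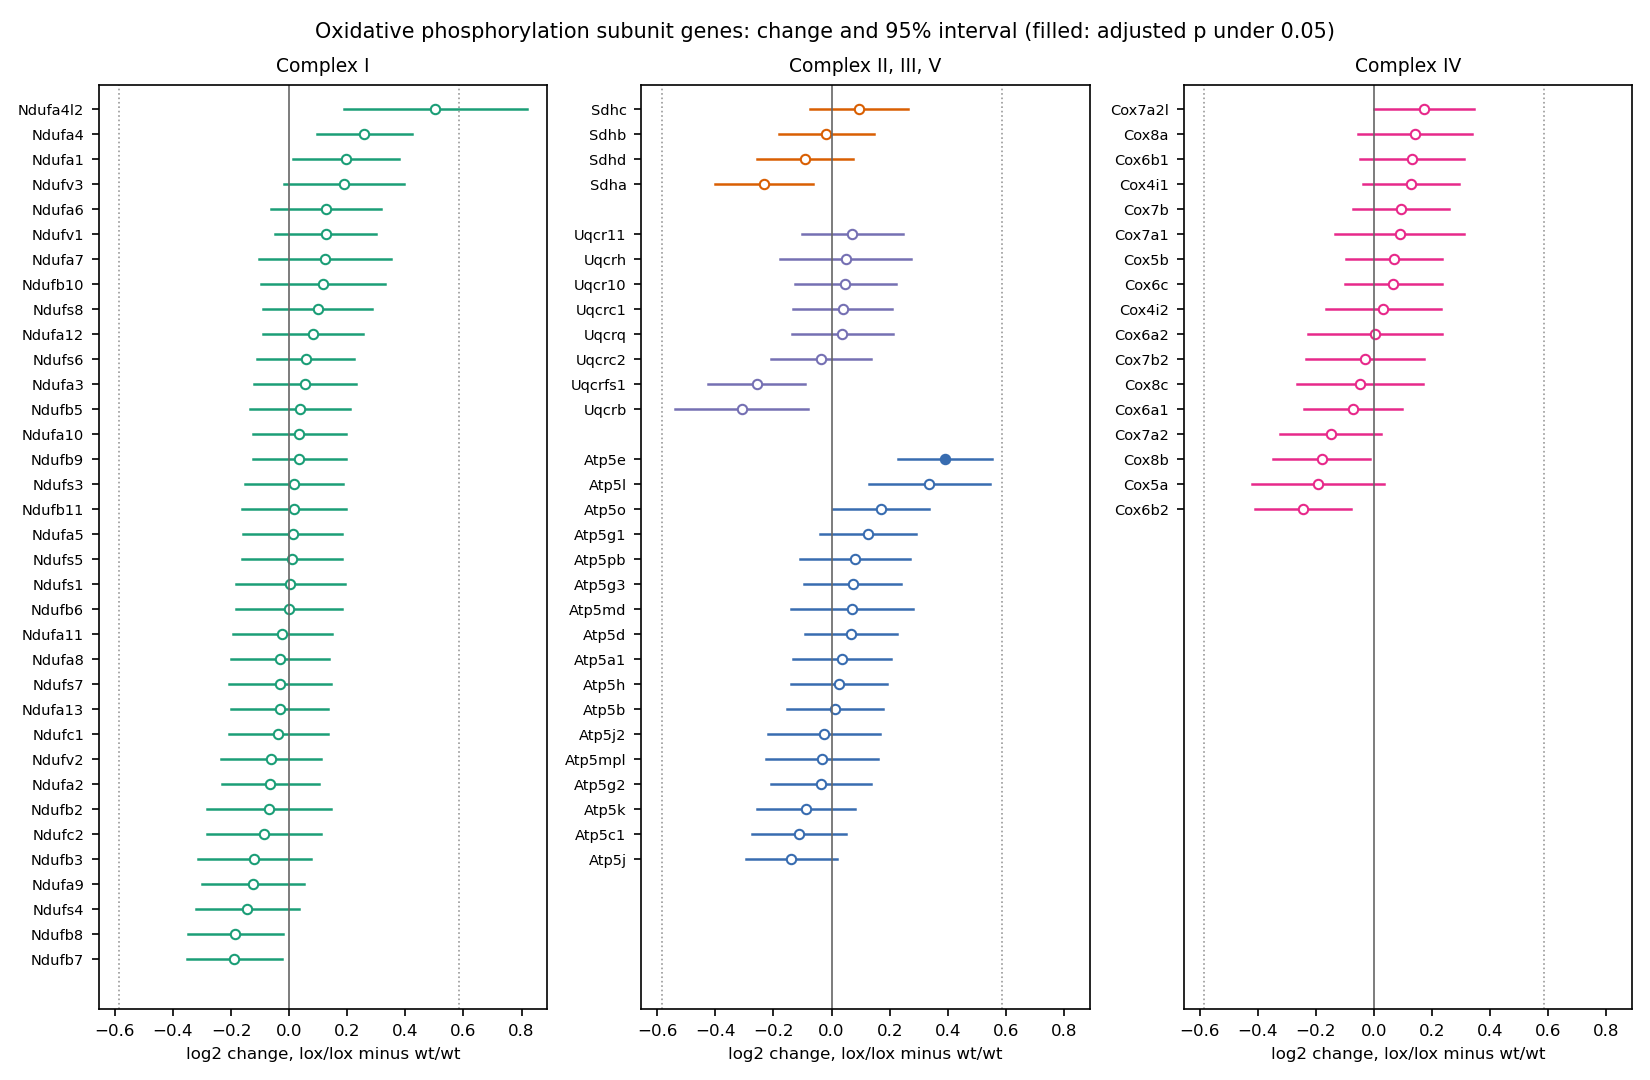
The difference in log2 expression between Scc1 lox/lox and Scc1 wt/wt (3 arrays each) for each subunit gene, with its 95% interval, by complex. Most points lie within 0.1 of 0, and Atp5e is the 1 gene with an adjusted p below 0.05.

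The number of calls among the subunits depended on the scaling and on how the spread was modelled. It was 3 after quantile normalization and after cyclic loess (Atp5e, Atp5l and Ndufa4), 4 when dim genes were removed first (these and Uqcrfs1), 5 with array weights and 7 with a trended, robust variance. Those 7 were Atp5e, Atp5l, Ndufa4 and Ndufa4l2, higher in Scc1 lox/lox, and Sdha, Uqcrb and Uqcrfs1, lower. The fit with that variance had 21 subunit genes at an unadjusted p below 0.05. Among all genes tested the number of calls also rose in each of these alternatives. The share of subunit genes called stayed below that of all genes tested, except with the trended, robust variance, where it was slightly above. The lower share of calls among the subunits therefore did not hold in that fit. Leaving out Scc1 lox/lox replicate 2 gave 0 calls (10 subunit genes at an unadjusted p below 0.05), and leaving out Scc1 wt/wt replicate 2 gave 2, Atp5e and Atp5l.

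Subunit transcripts were slightly low on an array of each genotype. The median deviation of the 81 genes from their own means over the 6 arrays was 0.02, 0.02 and -0.04 in the Scc1 wt/wt arrays and 0.01, -0.03 and 0.02 in the Scc1 lox/lox arrays, so the genotypes overlapped. In every complex the median was negative on Scc1 wt/wt replicate 3 (-0.054 to -0.015) and on Scc1 lox/lox replicate 2 (-0.063 to -0.0056). Over all genes these arrays had medians of 0.0032 and -0.010.

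**Figure D2:**
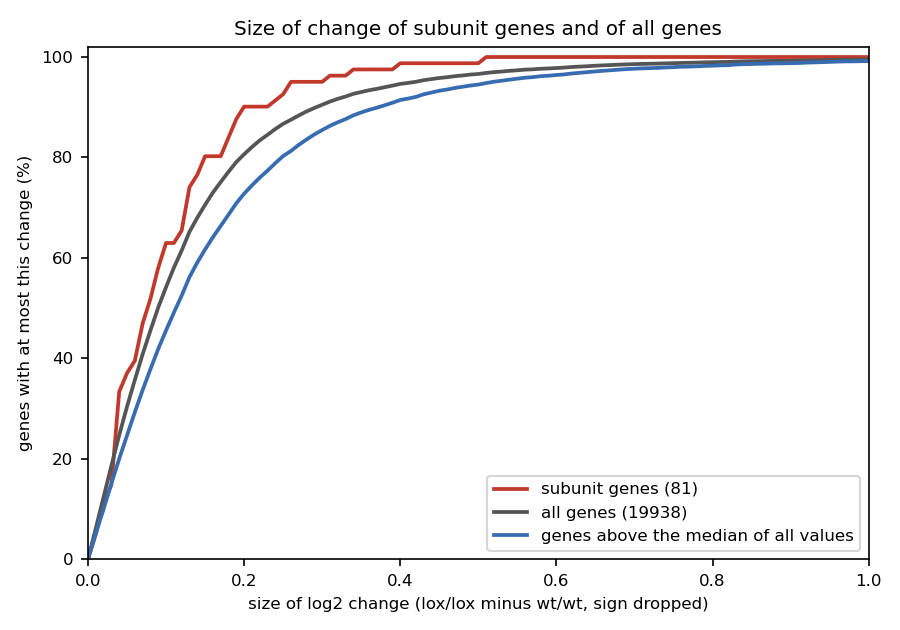
Cumulative share of genes (percent) by the size of their difference between genotypes (log2, without sign), for the subunit genes, for all genes and for the genes above the median of all values. Under 0.1 lie 63.0% of the subunit genes and 54.2% of all genes.

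Promoters are shown for the gene with the smallest unadjusted p in complexes II to V, since nuclear respiratory genes are known for sites of NRF1 and of ETS factors such as GABP just before the start. RefSeq promoters (GRCm38.p6, 250 bases before to 50 after the start) were matched for 66 of the 81 genes. Below are the 150 bases before the start, 5′ to 3′ on the gene's strand, which is the minus strand in all 4. Capitals mark matches to an NRF1 motif in Sdha, to the ETS core in Uqcrfs1, to the CCAAT box in Cox6b2, and to the ETS core and the CCAAT box in Atp5e.
Sdha, chr13:74350241-74350390: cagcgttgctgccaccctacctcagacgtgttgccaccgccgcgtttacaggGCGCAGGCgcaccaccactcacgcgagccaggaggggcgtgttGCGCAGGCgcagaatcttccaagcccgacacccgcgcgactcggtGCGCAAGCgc
Uqcrfs1, chr13:30545317-30545466: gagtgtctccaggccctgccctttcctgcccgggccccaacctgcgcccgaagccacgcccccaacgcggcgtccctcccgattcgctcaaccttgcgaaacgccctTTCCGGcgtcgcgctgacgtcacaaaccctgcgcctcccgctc
Cox6b2, chr7:4753095-4753244: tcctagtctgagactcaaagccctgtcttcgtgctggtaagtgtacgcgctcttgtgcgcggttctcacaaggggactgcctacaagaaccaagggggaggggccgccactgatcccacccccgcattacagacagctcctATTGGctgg
Atp5e, chr2:174464102-174464251: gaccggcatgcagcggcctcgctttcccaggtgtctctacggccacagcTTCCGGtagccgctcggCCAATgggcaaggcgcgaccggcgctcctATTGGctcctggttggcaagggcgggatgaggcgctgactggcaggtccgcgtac

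Motifs were searched by letters on both strands of the whole window, and a match is a description of letters, not of binding. The NRF1 motif GCGCANGC was in the windows of 22 of the 66 subunit genes (33.3%), against 11.2% of the 27025 genes with a window. The ETS core CCGGAA was in 26 (39.4%, against 16.7%), and the longer ETS motif CCGGAAGT, which contains it, in 5 (7.58%, against 4.31%). The YY1 motif ATGGCGGC was in 6 (9.09%, against 2.60%). For the E-box CACGTG, the letters that Myc and related factors bind, there were 6 (9.09%, against 8.09%), and for the CCAAT box 29 (43.9%, against 41.1%). The subunit windows held more G and C, with a median of 57.3% against 52.7% in all windows, and the part of base composition in these shares was not tested.

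Among the genes named for complex I, which oxidises NADH, Ndufa4l2 had the largest single difference of the 81 genes, while the core genes differed little. None of the 35 genes was called (5 at an unadjusted p below 0.05, 3 higher and 2 lower in Scc1 lox/lox), and the median difference was 0.012. The 6 measured genes of the nuclear-encoded catalytic core, which carry the flavin and the iron-sulfur clusters or hold them in place, lay between -0.062 for Ndufv2 and 0.13 for Ndufv1. Their genotypes overlapped in every case, and Ndufs1, the subunit with the most clusters, differed by 0.0044 (95% interval -0.18 to 0.19).

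Ndufa4l2 and its paralogue Ndufa4 stood at the top of the complex I names. Both are named for complex I, while the Ndufa4 protein is now known as a subunit of complex IV. By name both are counted here with complex I, among its 3 higher genes at an unadjusted p below 0.05. Ndufa4 was at 10.72, 10.78 and 10.72 in Scc1 wt/wt and at 10.99, 10.95 and 11.05 in Scc1 lox/lox, with no overlap. The difference was 0.26 (SE 0.074, 95% interval 0.095 to 0.42, limma, adjusted p = 0.0736). Ndufa4l2, a hypoxia-induced gene, was at 4.93, 4.97 and 4.82 in Scc1 wt/wt and at 5.26, 5.18 and 5.79 in Scc1 lox/lox. Its genotypes did not overlap either, but the third Scc1 lox/lox array was far above the other two, and all values were near the median of all values on the arrays, 4.90. The difference was 0.50 (SE 0.14, 95% interval 0.19 to 0.82, adjusted p = 0.0697), and 0.31 without that array (adjusted p = 0.0816).

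The other complex I genes encode accessory subunits, which surround the core and stabilise it. Ndufb7, part of the membrane arm, was at 9.30, 9.39 and 9.32 in Scc1 wt/wt and at 9.19, 9.11 and 9.13 in Scc1 lox/lox. These values did not overlap, and the difference was -0.19 (SE 0.074, limma, adjusted p = 0.201). Ndufb8, of the same arm, differed by -0.19 (adjusted p = 0.212). In the other direction Ndufa1, an X-linked subunit at the foot of the membrane arm, was at 8.38, 8.52 and 8.32 against 8.66, 8.55 and 8.60, a difference of 0.20 (adjusted p = 0.239). The 11 genes of the B and C series had 5 positive and 6 negative differences with a median of -0.037, and the 12 of the A series, leaving out Ndufa4 and Ndufa4l2, 7 positive and 5 negative with a median of 0.024. Of the 4 accessory genes of the S and V series, Ndufv3 was the highest at 0.19 (adjusted p = 0.332) and Ndufs4 the lowest at -0.14 (adjusted p = 0.404).

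**Figure D3:**
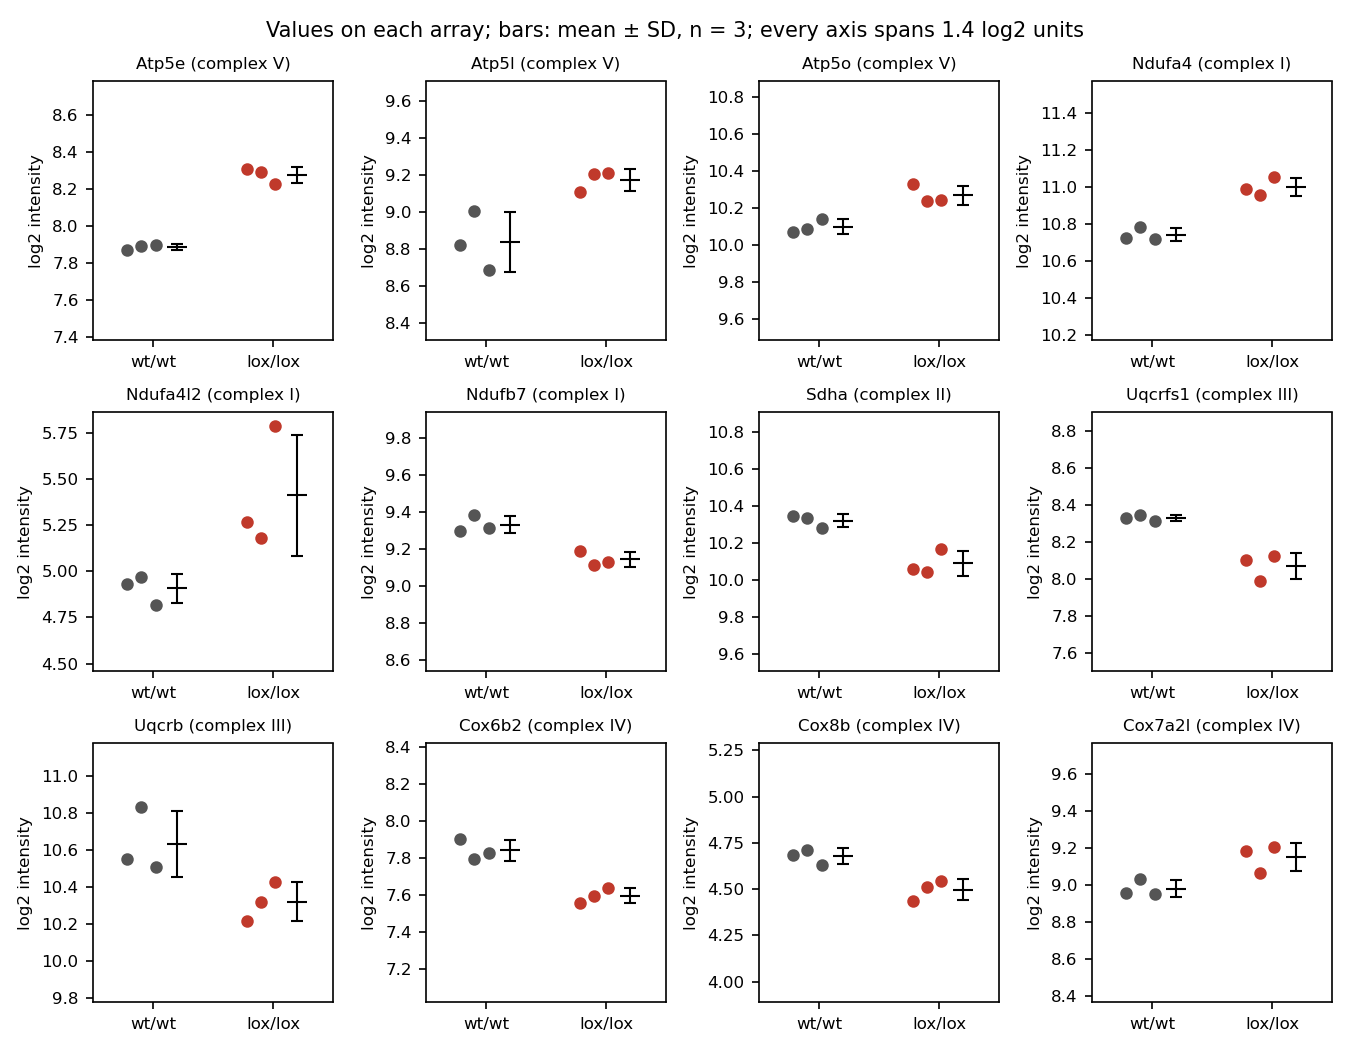
Log2 expression of 12 subunit genes in each of the 6 arrays (points) with the mean and SD of each genotype (bars, n = 3), every panel spanning 1.4 log2 units. Atp5e, Atp5l and Ndufa4 have the 3 Scc1 lox/lox arrays above the 3 Scc1 wt/wt arrays, and Sdha, Uqcrfs1 and Uqcrb below.

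In complex II, which joins the tricarboxylic acid cycle to the respiratory chain, the lowest of the 4 genes was Sdha, the flavoprotein that oxidises succinate. Sdha was at 10.35, 10.34 and 10.28 in Scc1 wt/wt and at 10.06, 10.04 and 10.17 in Scc1 lox/lox. The genotypes did not overlap, and the difference was -0.23 (SE 0.076, 95% interval -0.40 to -0.063), 1.17-fold lower in Scc1 lox/lox without passing the threshold (limma, adjusted p = 0.119). Sdhd, 1 of the 2 membrane anchors, was also lower in all 3 Scc1 lox/lox arrays, at 9.87, 9.80 and 9.90 against 10.00, 9.92 and 9.93, with a difference of -0.09 (adjusted p = 0.611). The other anchor, Sdhc, differed by 0.094 (adjusted p = 0.606), and the iron-sulfur subunit Sdhb by -0.018 (adjusted p = 0.943). The complex therefore had no common direction, and none of its genes was called (1 at an unadjusted p below 0.05).

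Complex III held 2 genes with lower values in Scc1 lox/lox and 6 that differed by less than 0.1, and none of the 8 was called (2 at an unadjusted p below 0.05). Uqcrfs1, the Rieske iron-sulfur protein that takes the first electron from coenzyme Q, was at 8.33, 8.35 and 8.32 in Scc1 wt/wt and at 8.10, 7.99 and 8.12 in Scc1 lox/lox. The SD of the Scc1 wt/wt arrays was 0.015, the genotypes did not overlap, and the difference was -0.26 (SE 0.075, 95% interval -0.43 to -0.091, limma, adjusted p = 0.08). Uqcrb, a small subunit near the quinone site, was at 10.55, 10.84 and 10.51 in Scc1 wt/wt and at 10.22, 10.32 and 10.43 in Scc1 lox/lox. It had no overlap and the largest negative difference of the 81 genes, -0.31 (SE 0.10, adjusted p = 0.125), which its 3 probe sets gave as -0.28 to -0.31. The core proteins Uqcrc1 and Uqcrc2 differed by 0.038 and -0.037. Uqcr11, the third gene by p, differed by 0.071 (adjusted p = 0.734).

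In complex IV, cytochrome c oxidase, the isoforms could be set against each other gene by gene, because several of its nuclear subunits exist in a usual form and a form restricted to heart and muscle, lung or testis. Ndufa4, counted by name with complex I, is not among the 17 genes here. None of the 17 was called. At an unadjusted p below 0.05 there were 2 (11.8%, against 18.0% of all genes), both lower. Among the 9 usual isoforms the differences ran from -0.19 to 0.14, with a median of 0.069. Among the 7 other isoforms they ran from -0.24 to 0.088, with a median of -0.031, and 4 of the 7 lay above the median of all values. The 2 genes below the unadjusted threshold were among these 7, and whether the isoform groups differ was not tested. Cox6b2, the testis form of the subunit that bridges the dimer, was at 7.90, 7.79 and 7.83 in Scc1 wt/wt and at 7.56, 7.60 and 7.64 in Scc1 lox/lox. These did not overlap, and the difference was -0.24 (SE 0.074, 95% interval -0.41 to -0.079, limma, adjusted p = 0.0938). Its usual counterpart Cox6b1 was at 10.67, 10.51 and 10.65 against 10.81, 10.68 and 10.73, higher in all 3 Scc1 lox/lox arrays by 0.13 (adjusted p = 0.469). Whether these 2 differences differ from each other was not tested.

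Cox8b, a muscle form, was at 4.69, 4.71 and 4.63 in Scc1 wt/wt and at 4.43, 4.51 and 4.55 in Scc1 lox/lox (-0.18, adjusted p = 0.236). All of these lie below the median of all values, as do those of Cox7b2, where background makes differences smaller. The usual Cox8a differed by 0.14 (adjusted p = 0.476) and the testis form Cox8c by -0.048 (adjusted p = 0.873). Cox4i1, the usual form of the subunit that binds ATP, was at 9.73, 9.69 and 9.80 against 9.82, 9.90 and 9.88 (0.13, adjusted p = 0.439), and the lung form Cox4i2 differed by 0.032 (adjusted p = 0.915). For subunit 6a the usual Cox6a1 differed by -0.073 and the muscle form Cox6a2 by 0.0047. For subunit 7a the usual Cox7a2 differed by -0.15 (adjusted p = 0.369) and the muscle form Cox7a1 by 0.088 (adjusted p = 0.743). Cox7a2l, which takes part in the joining of complexes III and IV into supercomplexes, was at 8.96, 9.03 and 8.95 against 9.18, 9.06 and 9.21, higher by 0.17 (adjusted p = 0.28). Its second probe set, with a lower mean, gave a difference of -0.0019. No pair of isoforms had a called difference in either member.

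Complex V, the ATP synthase, contained the 1 called subunit gene. Atp5e was at 7.87, 7.89 and 7.90 in the Scc1 wt/wt arrays (mean 7.88 ± 0.016, SD, n = 3) and at 8.31, 8.29 and 8.23 in the Scc1 lox/lox arrays (8.27 ± 0.043, SD, n = 3). The gap between genotypes was several times the spread within them: the gene rose by 0.39 (SE 0.072, 95% interval 0.23 to 0.55, limma, adjusted p = 0.0101). It encodes the smallest subunit of the catalytic F1 part, in the central stalk. The call held in 5 of the 6 fits that left out 1 array and was lost without Scc1 lox/lox replicate 2 (adjusted p = 0.0523), with a difference of 0.37 to 0.41 throughout. The other F1 genes did not follow it: Atp5a1 and Atp5b, the subunits that form the catalytic ring, differed by 0.036 and 0.010, Atp5c1, the gamma shaft, by -0.11 and Atp5d by 0.066.

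Atp5l, subunit g of the membrane part, had the second smallest unadjusted p in the complex. It was at 8.82, 9.01 and 8.69 in Scc1 wt/wt and at 9.11, 9.21 and 9.21 in Scc1 lox/lox. The genotypes did not overlap, although the Scc1 wt/wt arrays were spread more widely than for Atp5e, and the difference was 0.34 (SE 0.094, 95% interval 0.13 to 0.54, limma, adjusted p = 0.0675). Atp5o, the protein that ties the F1 head to the side stalk, was at 10.07, 10.09 and 10.14 against 10.33, 10.24 and 10.25 (0.17, adjusted p = 0.256). Atp5j, coupling factor 6 of the same stalk, went the other way, at 10.46, 10.46 and 10.50 against 10.34, 10.32 and 10.34 (-0.14, adjusted p = 0.353). Atp5g1, Atp5g2 and Atp5g3 encode the same mature ring subunit c and differed by 0.12, -0.038 and 0.072 (adjusted p = 0.446, 0.877 and 0.716). Of the 17 genes, 11 had a positive and 6 a negative difference, with a median of 0.036.

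Several probe sets for a gene offered a second reading of the same transcripts. There were 16 such genes. For Atp5l the 6 probe sets gave differences of 0.31 to 0.35, and 2 of the 5 that were not chosen passed the threshold when all named probe sets were tested together (adjusted p = 0.0373 and 0.0446). Nearly equal values over 6 probe sets may not be 6 separate measurements, since subunit genes have many processed copies in the genome whose probes can bind the same RNA, and where each probe set lies was not used here. For 5 genes 1 probe set had the opposite sign (Atp5h, Atp5pb, Cox6c, Cox7a2l and Ndufc1). The chosen probe sets of Atp5h, Atp5pb, Cox6c and Ndufc1 gave 0.027, 0.081, 0.067 and -0.037. For Cox7a2l the second probe set gave -0.0019 where the chosen one gave 0.17.

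**Figure D4:**
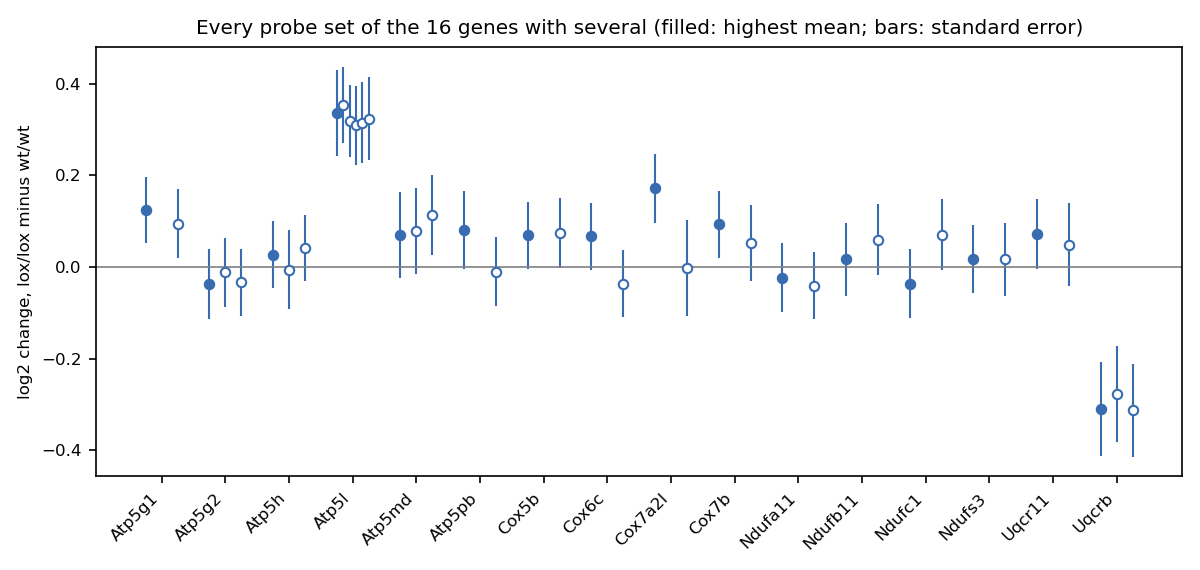
The difference in log2 expression between Scc1 lox/lox and Scc1 wt/wt for each probe set of the 16 subunit genes that have several, with its standard error; the filled point is the probe set with the highest mean. The 6 probe sets of Atp5l lie together between 0.31 and 0.35.

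The deleted gene lies on chromosome 15, and 4 subunit genes share that chromosome. The nearest was Ndufb9, 37 measured genes after Rad21, with a difference of 0.034 (limma, adjusted p = 0.88), and Cox6c, 53 before it, with 0.067 (adjusted p = 0.744). The Cox6c probe set that was not chosen gave -0.036. Ndufa6, 295 after it, differed by 0.13 (adjusted p = 0.514) and Atp5g2, 564 after it, by -0.038. None of the 4 was called.

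The other genes of the pathway were read from lists of assembly factors, coenzyme Q synthesis, the tricarboxylic acid cycle and regulators, beginning with the tricarboxylic acid cycle, which feeds the chain with NADH and succinate. The list for the cycle also held genes of the pyruvate dehydrogenase complex. Of its 17 measured genes 2 were called (11.8%), both lower, against 6.16% of all genes. Among the genes above the median of all values, where all 17 lay, 10.0% were called. The 3 Scc1 lox/lox arrays were below the 3 Scc1 wt/wt arrays for 8 of the 17, genes of that complex included, and above for 1. The background for lower was 12.7% of all genes and 17.8% of those above the median. The median difference over the list was -0.083. Idh2, the mitochondrial NADP-dependent isocitrate dehydrogenase, was at 10.26, 10.24 and 10.22 in Scc1 wt/wt and at 9.75, 9.67 and 9.73 in Scc1 lox/lox. It fell by 0.52 (SE 0.072, limma, adjusted p = 0.00195), 1.44-fold, and stayed called whichever array was left out. Suclg2, the GTP-forming subunit of succinyl-CoA ligase, was at 8.75, 9.01 and 8.58 against 7.97, 8.14 and 8.36 and fell by 0.62 (SE 0.13, adjusted p = 0.0167), 1.54-fold. That call for Suclg2 was lost without Scc1 lox/lox replicate 1 (adjusted p = 0.0572) or replicate 2 (0.0748). Dlat and Dld, subunits of the pyruvate dehydrogenase complex, differed by -0.28 (adjusted p = 0.11) and -0.30 (adjusted p = 0.115). Without Scc1 lox/lox replicate 3, Dld differed by -0.40 and passed the threshold (adjusted p = 0.0303).

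Assembly factors, which build the complexes without staying in them, gave 1 call each for complexes I (6.25%) and IV (5.26%), near the 6.16% of all genes. Of the 16 measured factors of complex I, Ndufaf4 was at 7.69, 7.61 and 7.60 in Scc1 wt/wt and at 8.01, 7.86 and 7.94 in Scc1 lox/lox. It rose by 0.30 (SE 0.077, limma, adjusted p = 0.0468), a call lost in each of the 6 fits that left out 1 array (adjusted p = 0.065 to 0.167). Ecsit differed by 0.29 (adjusted p = 0.0647) and Acad9, in the opposite direction, by -0.33 (adjusted p = 0.0722), with a median over the list of -0.021. Of the 19 factors of complex IV, Cmc1, a copper-binding protein, was at 5.22, 5.06 and 5.17 against 5.57, 5.45 and 5.58 and rose by 0.38 (SE 0.081, adjusted p = 0.021). It was called in 2 of the 6 fits without 1 array, and not without Scc1 wt/wt replicate 2 (adjusted p = 0.0725) or Scc1 lox/lox replicate 3 (0.0624). The copper chaperone Cox17 differed by -0.32 (adjusted p = 0.128).

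No call fell among the factors of complexes II and III, those of complex V, coenzyme Q synthesis or the subunits outside the name pattern. There were 10 factors of complexes II and III (2 at an unadjusted p below 0.05), where Sdhaf1 differed by -0.19 (limma, adjusted p = 0.227) and Lyrm7 by 0.23 (adjusted p = 0.237). There were 5 factors of complex V (0 at an unadjusted p below 0.05), with Atpaf1 at -0.11 and Atpaf2 at 0.079. Of the 12 genes of coenzyme Q synthesis (1 at an unadjusted p below 0.05), Coq2 differed by 0.26 (adjusted p = 0.231) and Coq9 by 0.15 (adjusted p = 0.339). The 7 subunits and carriers that the name pattern leaves out (0 at an unadjusted p below 0.05) included Atpif1, the inhibitor of the ATP synthase, at 0.085 (adjusted p = 0.67), and 2 encoded in mitochondrial DNA. ND3 of complex I was at 10.51, 10.97 and 10.79 against 11.06, 10.90 and 10.97 (0.22, adjusted p = 0.351), and COX2 of complex IV differed by -0.012 (95% interval -0.20 to 0.17).

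**Figure D5:**
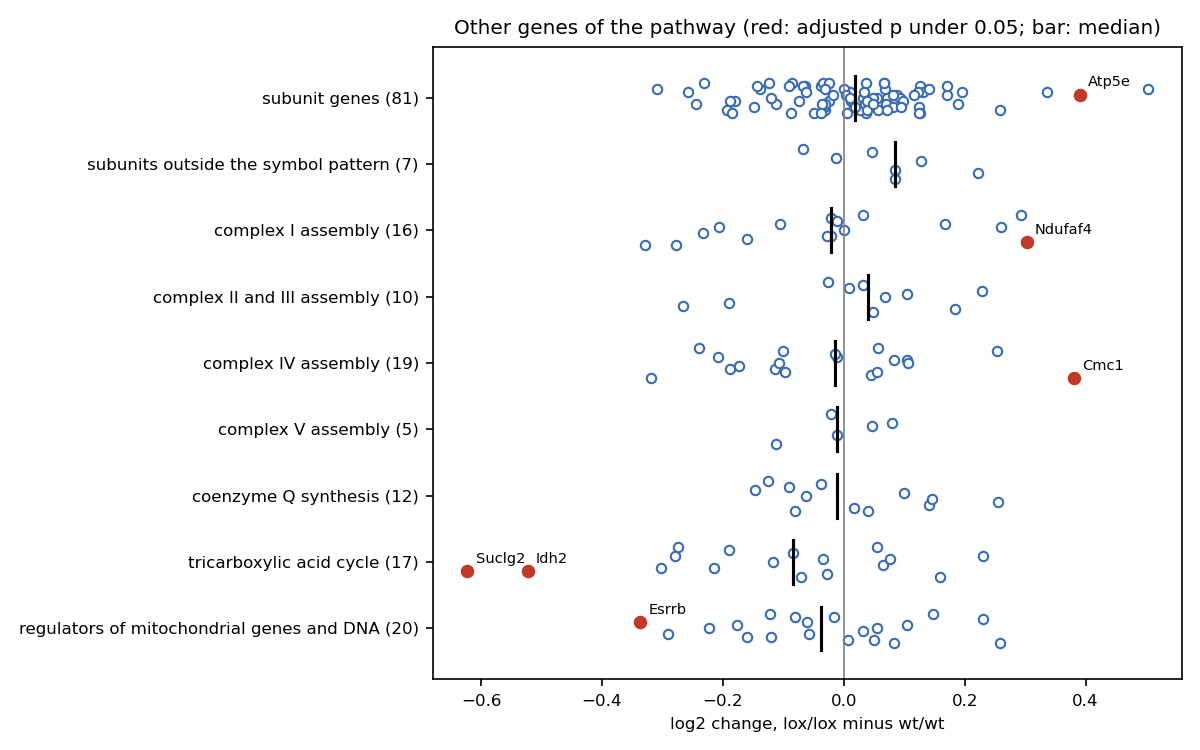
The difference in log2 expression between Scc1 lox/lox and Scc1 wt/wt for each of the 81 subunit genes (top row) and each gene of the other pathway lists, with the median of each list as a bar. Idh2 and Suclg2 of the tricarboxylic acid cycle are the lowest called genes, at -0.52 and -0.62.

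Among 20 measured regulators of respiratory genes and of mitochondrial DNA, 1 was called (5.0%, against 6.16% of all genes), Esrrb, an oestrogen-related receptor that also belongs to the ES cell network. Esrrb was at 9.98, 9.99 and 9.98 in Scc1 wt/wt and at 9.62, 9.57 and 9.75 in Scc1 lox/lox and fell by 0.34 (SE 0.078, limma, adjusted p = 0.0309), a call kept in 1 of the 6 fits without 1 array, the one without Scc1 lox/lox replicate 3. Gabpa, the DNA-binding subunit of the ETS factor GABP, differed by -0.29 (adjusted p = 0.0969), and by -0.37 without Scc1 lox/lox replicate 3, which passed the threshold (adjusted p = 0.0423). Nrf1 itself differed by -0.08 (adjusted p = 0.683), Tfam, which packages and transcribes mitochondrial DNA, by 0.10, and the coactivator gene Ppargc1b by 0.26 (adjusted p = 0.12).

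Markers of the labelled cell type were present, and 4 of the 8 were called (50%). The share was 6.16% of all genes and 10.0% of those above the median of all values. All 8 ES cell markers lay above the median of all values, with means over the list of 10.97 to 11.04 in the Scc1 wt/wt arrays and 10.75 to 10.88 in the Scc1 lox/lox arrays. Sox2, Nanog and Esrrb fell, by 0.48, 0.55 and 0.34 (limma, adjusted p = 0.0036, 0.00473 and 0.0309), and Utf1 rose by 0.31 (adjusted p = 0.0391). The ES cell markers without a call differed by -0.20 to -0.16 (limma, adjusted p = 0.236 to 0.508). The calls of Sox2 and Nanog held in all 6 fits without 1 array, that of Esrrb in 1 and that of Utf1 in 0 (adjusted p = 0.0695 to 0.163). None of 10 fibroblast markers was called (2 at an unadjusted p below 0.05, Vim at 0.24 and Dcn at 0.21), with means of 5.20 to 5.40 in Scc1 wt/wt and 5.30 to 5.41 in Scc1 lox/lox, and 5 of the 10 lay above the median of all values. Of 8 primitive endoderm markers 1 was called (12.5%, against 6.16% of all genes). Lama1 fell by 0.36 (limma, adjusted p = 0.0319), a call kept only in the fit without Scc1 lox/lox replicate 3, 1 of 6. The means of this list were 4.75 to 5.05 in Scc1 wt/wt and 4.83 to 4.93 in Scc1 lox/lox. The part of these shifts in the subunit values was not tested.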

How the data were processed

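The authors deposited log2 expression values per probe set, and the submitters' processing notes name RMA and affy, with no version or option stated. Each sample was 1 array, so depth does not apply and the number of arrays limits the precision. RMA scales the arrays to each other and compresses the changes of dim genes. The medians of the deposited arrays ran from 4.85 to 4.94. Of 35556 probe sets, 21789 carried 1 gene symbol, 1621 several and 12146 none in the platform table, and the first kind was used. RefSeq lists 87 coding genes of the name pattern, and the 6 without a probe set of their own are not analysed here.

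From these values, limma 3.58.1 (R 4.3.3) compared 3 Scc1 lox/lox with 3 Scc1 wt/wt arrays with lmFit and eBayes and no covariate, on the probe set with the highest mean for each of 19938 genes, with Benjamini-Hochberg adjustment over all of them and a threshold of 0.05. The script was tested on simulated data. The series text calls the samples biological replicates, and p-values measure the spread between them. The members, gene lists and tests were chosen with earlier results of these data known. Named were Rad21, called members, the 3 smallest p-values of each complex, isoform groups, members on the chromosome of Rad21, members whose probe sets disagreed in sign, and called genes and the 2 smallest p-values of each other pathway list; of the marker lists, called genes were named. Ndufb8, Ndufa1, Ndufv1, Ndufv2, Ndufs1, Ndufs4, Ndufv3, Sdhb, Uqcrc1, Uqcrc2, Atp5a1, Atp5b, Atp5c1, Atp5d, Atp5j, Cox7b2, Dlat, Dld, Acad9, Nrf1, Tfam, Ppargc1b, COX2, Vim and Dcn were added after their values were seen. Alternatives were quantile, median and cyclic loess scaling, removal of dim genes, the mean of probe sets, a trended robust variance, array weights, a replicate block, leaving out each array and, added after seeing the data, leaving out both arrays that stood apart.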

Additional observations from a re-analysis of the deposited data

How the results depend on the processing

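None of the called genes named in the report changed direction under the alternatives run. Subunit genes called, 1 as reported, came to 3 with quantile scaling and with cyclic loess (3 higher each), 4 without dim genes (3 higher, 1 lower), 5 with array weights (4 higher, 1 lower), 7 with a trended robust variance (4 higher, 3 lower) and 0 to 2 with 1 array left out (0 to 2 higher, 0 lower). Only with the trended robust variance was the share of subunit genes called above that of all genes tested. Over all genes, leaving out 1 array gave 626 to 1132 calls (269 to 484 higher, 340 to 686 lower), with 806 without Scc1 wt/wt replicate 2, 661 without Scc1 wt/wt replicate 3 and 626 without Scc1 lox/lox replicate 2. Leaving out both arrays that stood apart, an alternative added after seeing the data, gave 697 (267 higher, 430 lower), with 0 complex I assembly genes, 0 complex IV assembly genes, 0 regulators, 2 ES cell markers and a complex IV median of -0.020.

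Complex I assembly calls were 2 with quantile scaling, cyclic loess and array weights, 3 without dim genes and with the trended robust variance, and 0 with median centring, the replicate block and any 1 array left out. Array weights gave 2 complex IV assembly genes (0 to 1 with 1 array left out), 4 genes of the tricarboxylic acid cycle list and 3 regulators. The trended robust variance gave 4 genes of that cycle list, 2 regulators and 1 fibroblast marker. With 1 array left out the tricarboxylic acid cycle list had 1 to 4 calls, the regulators 0 to 2, the ES cell markers 2 to 3, the primitive endoderm markers 0 to 1, and the other lists 0. Median centring moved the median of all genes to -0.027. With 1 array left out, the complex IV median ranged from -0.035 to 0.078 and that of the 81 subunit genes from 0.01 to 0.04.

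Replicates that share a number correlated at 0.058, -0.122 and -0.051 in their deviations from the genotype means. No pairing by number showed in these values, but with so few arrays they cannot settle whether the samples were paired. With the replicate number as a block, 1086 genes were called (452 higher, 634 lower), with 1 subunit gene, 0 regulators, 2 ES cell markers and 0 primitive endoderm markers. The cause of these shifts was not tested. With 3 arrays a genotype, small changes are not detectable.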
